A study of Homo sapiens with 6 samples.

Results

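The cytosolic ribosomal proteins are the protein building blocks of the ribosome that translates nuclear mRNAs. Their genes were described here across 6 bulk RNA-seq libraries of UMUC3 cells, an established human bladder carcinoma cell line. Members were chosen by symbol alone: every gene of the deposited count table named RPL or RPS with a number and an optional A, X or L suffix, with RPLP0, RPLP1, RPLP2 and RPSA. This gave 83 of the 21503 genes of the count table, 51 of the large subunit and 32 of the small subunit. Of these, 77 were canonical ribosomal proteins and 6 were L-type paralogues (RPL7L1, RPL10L, RPL22L1, RPL26L1, RPL39L and RPS27L). A filter on low counts kept 82 for testing and removed RPL39L. FAU, RACK1 and RPL36AL also belong to the ribosome but fall outside the naming pattern and were followed beside the members.

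The study compared 3 libraries of UMUC3 cells carrying a GANAB knockdown with 3 libraries of control UMUC3 cells. In both groups the cells had been placed into the bladders of C57 nude mice and left for 14 days, with no further treatment of the mice. GANAB encodes the catalytic subunit of glucosidase II, which trims glucose from new N-glycans in the endoplasmic reticulum. How the knockdown was made, which control construct was used, and the number and age of the mice were not given in the sources used here. No label ties a library to an animal, so the p-values rest on the spread among the 3 libraries of a group, and that spread may be technical.

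A ribosome holds about the same number of copies of each of its proteins, and their genes are therefore usually expressed in step. Their mRNAs begin with a C followed by a run of pyrimidines, the 5′ terminal oligopyrimidine (TOP) tract, through which the kinase mTORC1 and the RNA-binding protein LARP1 control their translation and stability. An RNA-seq library measures the mRNA level and not that translation. In growing tumour cells these mRNAs are among the most abundant of the cell.

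The sequences around the transcript start are shown because the TOP tract is the feature that most of these genes share, and because it separated some paralogues from their parent genes. A promoter entry of RefSeq (GRCh38.p14) was found for 67 of the 83 members. A TOP-type start was called where the first transcribed base was C and each of the next 4 was C or T, read on the transcribed strand only. Of the 67 members, 47 (70.1%) had such a start in at least 1 entry, against 1404 of 27305 genes (5.14%) with an entry and 7.05% of the 12348 tested genes with an entry. The share was 46 of 62 among canonical members and 1 of 5 among paralogues, with RPL22L1 as that one paralogue. Each line holds 16 bases before the annotated start and 14 from it, 5′ to 3′, with the pyrimidine run from the first transcribed base in capitals where the rule was met. Where a gene had more than 1 entry, an entry that met the rule was preferred.
RPL34, chr4:108620560-108620589, + strand: caaaggcttttttcttCCTCTTCCggggac
RPL41, chr12:56116617-56116646, + strand: acggaacttcgcctttCTCTCggccttagc
RPS26, chr12:56041902-56041931, + strand: ggagacacataacctcgattttcttccgcc
RPSA, chr3:39406704-39406733, + strand: atttcctgccgcctgtCTTTTCCgtgctac
RPS21, chr20:62387087-62387116, + strand: gggtgactagctgcttCCTTTCTCTCTCgc
RPL17, chr18:49492452-49492481, - strand: tcctctttccctaagcagcctgaggtgagt
RPL22, chr1:6199582-6199611, - strand: gtagttcgctcacctcCCTTTCTaactccg
RPL22L1, chr3:170870182-170870211, - strand: gcgcggccgtagcttcCTCTCTgctctcgc
RPL26, chr17:8383180-8383209, - strand: gaagcagcgtgtagttCTCTTCCCTTTTgc
RPL26L1, chr5:172958713-172958742, + strand: cagtcttccaggggtcggcgaacgaaacgc
RPS27, chr1:153990746-153990775, + strand: gatttccgctttcgctCCTTTCCggcggtg
RPS27L, chr15:63157464-63157493, - strand: gaagttgatgccgagcgcagatcgcttgca
The first 6 lines are the members with the smallest p in the comparison of knockdown with control, and the last 6 are paralogues beside their parent genes. RPL26 and RPS27 had a pyrimidine run at the start and their paralogues RPL26L1 and RPS27L had none, while RPL22 and RPL22L1 both had one. RPS26 and RPL17 did not meet the rule in the entry used, which says only that these letters do not begin the annotated transcript.

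The libraries differed in depth and makeup. Knockdown libraries 1, 2 and 3 held 37659163, 36619291 and 40039584 estimated counts, and control libraries 1, 2 and 3 held 36381218, 17942832 and 11737837. GANAB was at 231, 238 and 231 CPM (counts normalised for sequencing depth) in the knockdown libraries and 685, 825 and 661 CPM in the control libraries, a log2 fold change of -1.63 (SE 0.141, edgeR adjusted p = 0.00239). Control library 1 stood apart, with 32.6% of its counts on transcripts of the mitochondrial genome, against 5.76% to 6.53% in the knockdown libraries and 2.18% to 4.46% in the other control libraries. Most of these were mitochondrial rRNA. MT-RNR1 and MT-RNR2 held 29.2% of the counts of control library 1, against 2.11% to 2.43% in the knockdown libraries and 0.928% to 1.10% in the other control libraries. The knockdown libraries were close to each other, with a biological coefficient of variation over all genes of 10.7%, against 53.4% among the control libraries. Of 18 urothelial and epithelial markers, 15 were tested, KRT20 and UPK3A were not in the count table, and VIM, a mesenchymal filament gene, held most of the summed level of the list, at 5501 to 5656 CPM in knockdown and 2193 to 3376 CPM in control libraries. Of the 15, 3 were called higher in edgeR (VIM, UPK1A and FOXA1) and none lower, and signs were mixed, with negative values for PPARG (log2 fold change -1.12) and KRT7 (-1.11). The epithelial keratin KRT8 was at 145 to 157 CPM in knockdown and 80.7 to 165 CPM in control libraries, while the uroplakin UPK1A was at 3.37 to 4.50 CPM in knockdown and 0.158 to 0.741 CPM in control libraries.

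Summed over all members, the knockdown libraries lay inside the range of the control libraries. The ribosomal protein genes held 10.3%, 10.0% and 10.2% of all counts in knockdown libraries 1, 2 and 3, and 5.92%, 9.53% and 11.6% in control libraries 1, 2 and 3. Control library 1 set the low end of the control range and control library 3 the high end. The Wilson 95% interval of each share reached at most 0.0183 percentage points to either side and covers counting error only. In bulk samples, fewer cells of a type and less RNA per cell cannot be told apart. With mitochondrial transcripts left out, the shares were 11.0%, 10.6% and 10.9% in the knockdown libraries and 8.78%, 9.97% and 11.9% in the control libraries, so the knockdown libraries again lay inside the control range. The difference of the means was 1.15 percentage points (10.2 ± 0.159% in knockdown, 9.02 ± 2.88% in control, SD, n = 3 each), and -0.40 percentage points without control library 1. The TPM scale is corrected for gene length as well as depth. On it the members held 24.7%, 24.8% and 24.7% of the total in knockdown and 12.7%, 22.9% and 28.4% in control libraries. With mitochondrial transcripts left out, these shares were 27.5%, 27.5% and 27.7% in knockdown and 19.8%, 24.5% and 29.4% in control libraries. TPM values of single members below were taken as deposited, with mitochondrial transcripts in the total.

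Gene by gene, a single member, RPL34, passed the test. In edgeR's quasi-likelihood test with Benjamini-Hochberg adjustment over all 19430 genes, 1 of 82 members passed at an adjusted p under 0.05 and rose, and none fell. This was 1.22% of the members, against 8.31% of all genes tested (4.59% higher in knockdown and 3.72% lower). At an unadjusted p under 0.05 there were 6 members (7.32%), against 26.0% of all genes. These were the same 6 that passed in DESeq2's Wald test at an adjusted p under 0.05, which called 17.1% of all genes, and limma-voom with quality weights called 14 members and 19.1% of all genes. By sign, 50 log2 fold changes were positive and 32 negative. Their median was 0.08 and their middle range from -0.11 to 0.20, while over all genes the median was 0.03 and the middle range from -0.36 to 0.55. Of the 82 members, 77 had a log2 fold change within 0.5 of 0.

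The intervals show how large a difference these libraries would still allow. The 95% interval of the fold change lay inside a 2-fold change in either direction for 78 of 82 members and inside a 1.5-fold change for 47. The exceptions to the 2-fold limit were RPL41, RPSA, RPS13 and the sparse paralogue RPL10L. Standard errors of the canonical members ran from 0.128 to 0.244 on the log2 scale. A p that misses the threshold does not show that a member was the same in both groups.

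**Figure D1:**
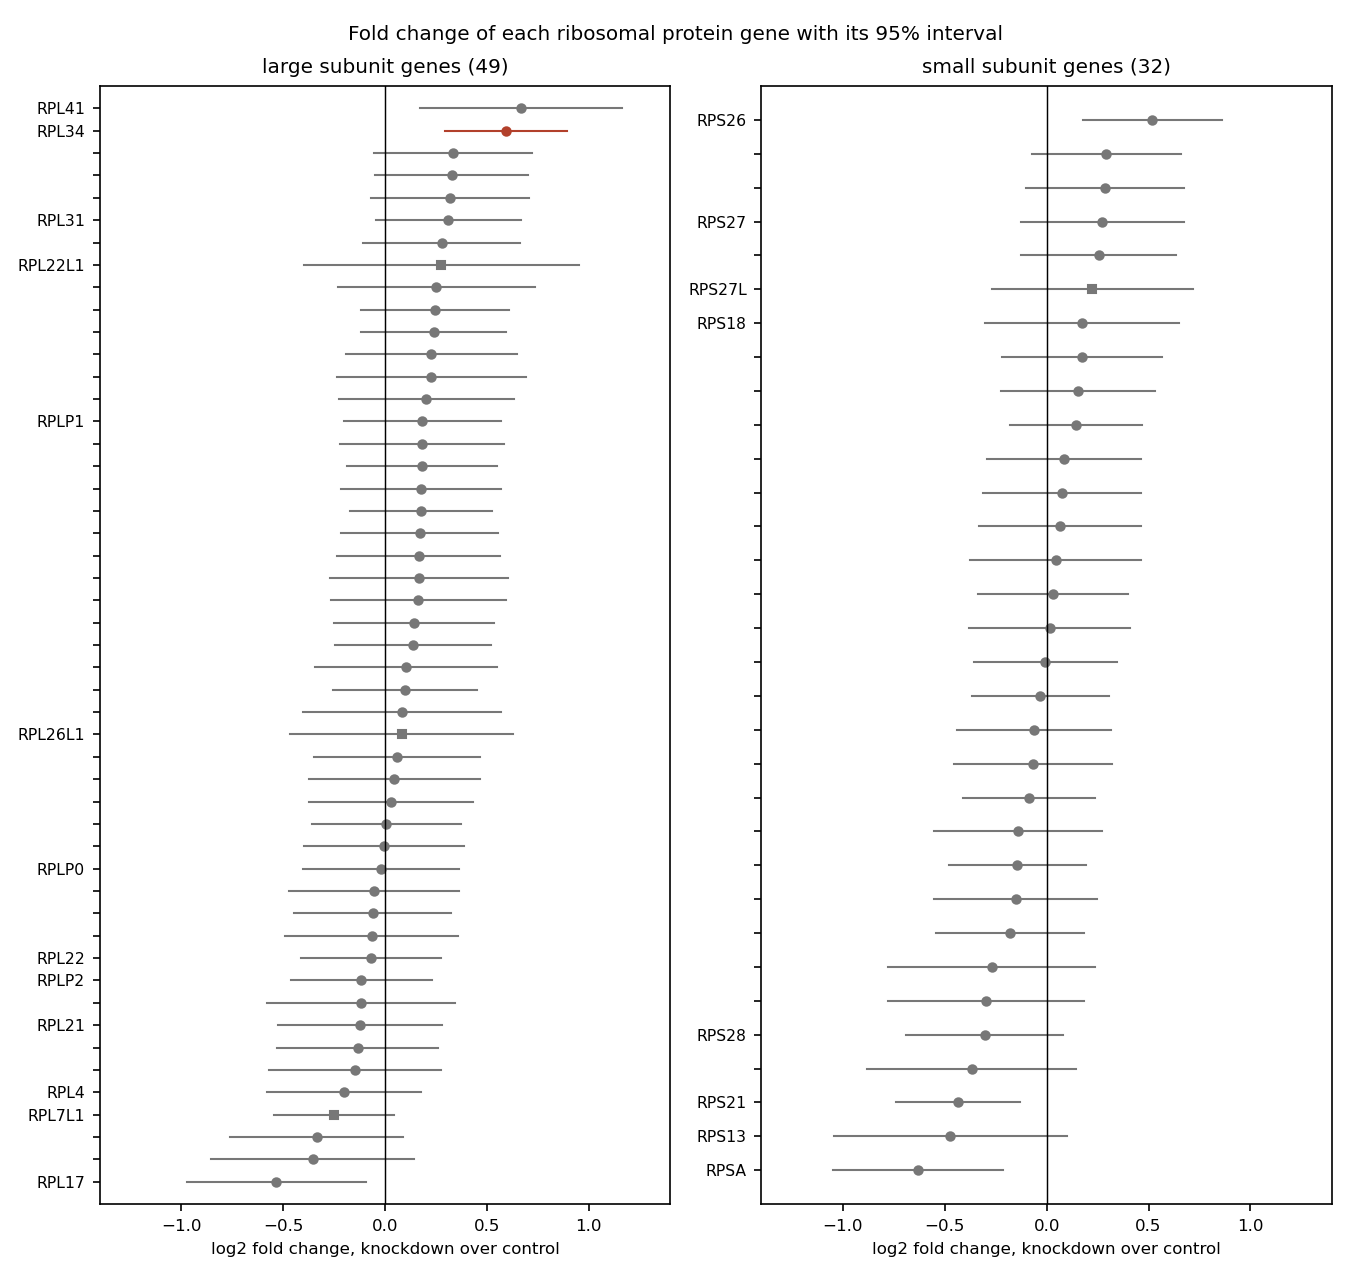
Log2 fold change (knockdown over control, x axis) of each ribosomal protein gene with its 95% interval from edgeR, large subunit genes on the left and small subunit genes on the right, ordered by fold change. Genes named by rule are labelled, circles are canonical members and squares paralogues, red marks the adjusted p under 0.05 of RPL34, and RPL10L (wide interval) and RPL39L (not tested) are left out; most intervals cross 0 and 77 of 82 point estimates lie within 0.5.

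The count of members called depended on single libraries, as did that over all genes, which ran from 62 to 5604. Without control library 1, RPL34 was no longer called (log2 fold change 0.50, edgeR adjusted p = 0.0504), RPSA and RPS21 were called lower instead, 1601 genes were called in all, and the median of the members was -0.06. Without control library 2, 5604 genes were called in all and 8 members, 3 higher (RPL34, RPS26 and RPS27L) and 5 lower (RPS13, RPS21, RPL17, RPSA and RPS6). Without control library 3, RPL41 and RPL34 were called, both higher, among 1760 genes in all. Without any 1 of the knockdown libraries, no member was called in edgeR and 62 to 115 genes in all, with an adjusted p for RPL34 of 0.175 to 0.197. Lists of marker genes for smooth muscle, fibroblasts, leukocytes and endothelium also differed between libraries. The smooth muscle list (4 of 9 genes called higher, 44.4%, against 4.59% of all genes) summed to 738 to 776 CPM in knockdown and 156 to 473 CPM in control libraries. The fibroblast list (1 of 10 tested genes called higher, 10.0%, LUM not in the count table) summed to 270 to 272 CPM and 83.5 to 289 CPM in the same order. Of the 16 genes of the leukocyte list, 10 were not in the count table, among them CD14, C1QA, C1QB, C1QC and TYROBP. None of the 6 tested was called, and 1, CD68, had an unadjusted p under 0.05 in edgeR (log2 fold change -1.43). The list summed to 58.2 to 58.5 CPM in knockdown and 72.3 to 259 CPM in control libraries. CD68 held most of that sum, at 52.3, 51.6 and 51.6 CPM in knockdown and 96.0, 255 and 66.8 CPM in control libraries. The median log2 fold change of the 6 tested genes was 0.34. The endothelial list (none of 8 tested genes called and 2 at an unadjusted p under 0.05, CLDN5 and EMCN not in the count table) summed to 78.4 to 83.7 CPM in knockdown and 59.4 to 222 CPM in control libraries. Over all genes, 26.0% had an unadjusted p under 0.05 in edgeR. Whether the transcripts of these lists came from mouse cells or from the UMUC3 cells was not tested. Their part in the results on ribosomal protein genes was not tested either.

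The control libraries spread more widely than the knockdown libraries. The knockdown libraries lay wholly inside the range of the control libraries for 56 of 82 members (68.3%), against 37.4% of all genes. Control library 3 was the highest of the controls for 72 members, control library 1 the lowest for 61 and control library 2 the lowest for 21. The geometric mean of the 77 canonical members was 1080, 1047 and 1071 CPM in knockdown libraries 1, 2 and 3, and 878, 991 and 1230 CPM in control libraries 1, 2 and 3. The median SD of log2 CPM over the members was 0.0321 among knockdown libraries and 0.274 among control libraries, against 0.104 and 0.356 over all genes in the same order. For 51 members the controls stood in 1 order, with library 3 above library 2 and library 2 above library 1.

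**Figure D2:**
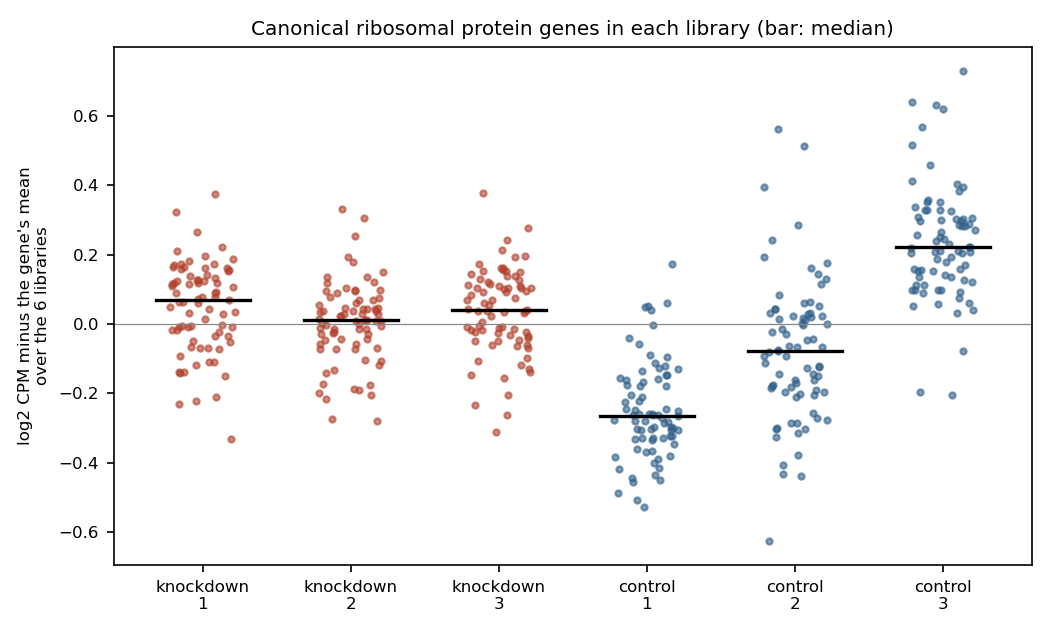
Log2 CPM of each of the 77 canonical ribosomal protein genes minus that gene's mean over the 6 libraries (y axis), with 1 column of points per library and a bar at the median, knockdown in red and control in blue. By geometric mean the control libraries step upwards from control 1 to control 3, at 878, 991 and 1230 CPM. The knockdown libraries sit between them at 1047 to 1080 CPM. Of the 82 tested members, 51 had the controls in that order.

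Groups that did not overlap were rarer than over all genes. For 13 members (15.9%) the 3 knockdown and 3 control values did not overlap, against 37.6% of all genes. In 8 of these the knockdown libraries were higher (among them RPL31, RPL34, RPL41 and RPS26), against 21.9% of all genes for that direction. In 5 they were lower (RPL5, RPL7L1, RPL17, RPS21 and RPSA), against 15.7% of all genes.

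RPL34 (ENSG00000109475, chromosome 4, 108620566 to 108630412, plus strand, GRCh38) encodes a protein of the large subunit. It was at 402, 405 and 381 CPM in knockdown libraries 1, 2 and 3, and at 238, 269 and 279 CPM in control libraries 1, 2 and 3. Every knockdown library was above every control library, and the SD of log2 CPM among its control libraries, 0.121, was the smallest of all members. The mean was 396 ± 13.2 CPM in knockdown and 262 ± 21.6 CPM in control (SD, n = 3 each), a 1.51-fold rise (95% interval 1.23 to 1.86, log2 fold change 0.59, SE 0.128, edgeR adjusted p = 0.0332). Per length, it was at 1677, 1800 and 1632 TPM in knockdown and 644, 1165 and 1205 TPM in control libraries. With the libraries scaled to the ribosomal protein genes alone, its log2 fold change was 0.52 and its edgeR adjusted p = 0.112. Its listed pseudogene held at most 0.717% of the summed counts of gene and pseudogene in any library.

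RPL41 encodes the smallest and most basic protein of the ribosome and was the most abundant member per length, with a mean of 8951 TPM over the 6 libraries. It was at 2869, 2737 and 2878 CPM in knockdown libraries and 1538, 1435 and 2370 CPM in control libraries. The groups did not overlap, and control library 3 lay nearest to the knockdown libraries. Its log2 fold change was 0.67 (SE 0.212, edgeR adjusted p = 0.0950), and 0.88 with an adjusted p of 0.0118 in edgeR without control library 3. RPL41 alone made up 4.57% to 4.68% of the TPM of all members in knockdown and 2.58% to 3.40% in control libraries.

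RPS26, a protein near the mRNA exit of the small subunit, was the least abundant canonical member per length, with a mean of 709 TPM. It was at 326, 323 and 328 CPM in knockdown libraries and 191, 255 and 237 CPM in control libraries. All knockdown values lay above all control values. The log2 fold change was 0.52 (SE 0.147, edgeR adjusted p = 0.0711). RPS26 overlaps AC034102.3 on the opposite strand, and whether counting used strand was not given in the sources used here, so reads of the pair cannot be told apart.

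Of the members with lower values in knockdown, RPSA and RPS21 had the smallest p and RPSA and RPL17 the lowest fold changes. RPSA, a small subunit protein also known as the precursor of the laminin receptor, was at 966, 1003 and 978 CPM in knockdown libraries and 1180, 1793 and 1594 CPM in control libraries. All knockdown values lay below all control values, with control library 1 the closest. The log2 fold change was -0.63 (SE 0.178, edgeR adjusted p = 0.0707), and -0.81 with an adjusted p of 0.0268 in edgeR without control library 1. RPSA pseudogenes held 2.98% to 3.51% of the summed counts of RPSA and its pseudogenes in knockdown and 0.435% to 1.79% in control libraries.

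RPS21, a protein that contacts RPSA in the small subunit, was at 438, 440 and 431 CPM in knockdown libraries and 525, 617 and 626 CPM in control libraries. The groups did not overlap, and control library 1 was again the nearest control. The log2 fold change was -0.43 (SE 0.131, edgeR adjusted p = 0.0834), and the adjusted p was 0.0410 in edgeR without control library 1.

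RPL17, a large subunit protein that helps to line the peptide exit tunnel, was at 846, 812 and 822 CPM in knockdown libraries and 1027, 1030 and 1535 CPM in control libraries. The groups did not overlap, but control library 3 alone was well above the rest. The log2 fold change was -0.53 (SE 0.188, edgeR adjusted p = 0.123). RPL17 shares exons with the readthrough gene RPL17-C18orf32, so the split between them is uncertain. The readthrough gene was at 10.4, 3.74 and 5.98 CPM in knockdown and 4.52, 0 and 4.69 CPM in control libraries. RPL17 also overlaps AC100778.3 on the opposite strand, and without the strand setting reads of that pair cannot be told apart.

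**Figure D3:**
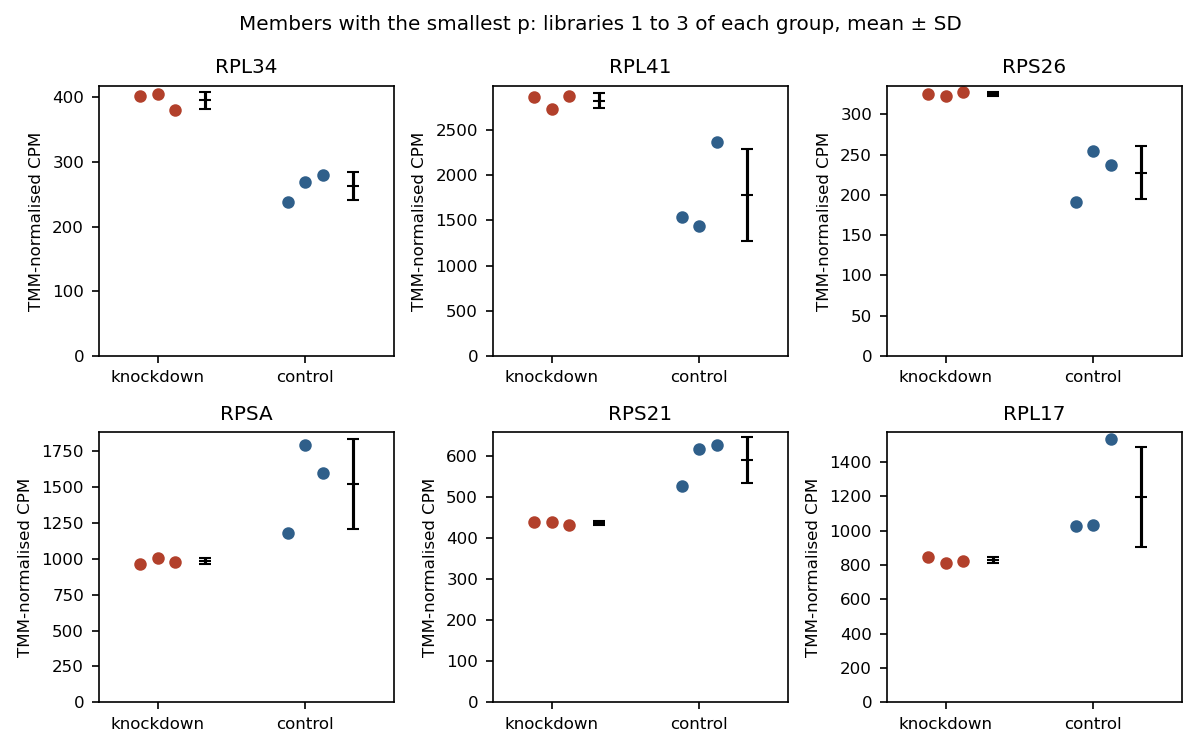
TMM-normalised CPM (y axis from 0) of the 6 members with the smallest p in each library, knockdown in red left of control in blue, libraries 1 to 3 from left to right, with the mean and SD of each group as a bar beside the points. RPL34, RPL41 and RPS26 lie higher and RPSA, RPS21 and RPL17 lower in knockdown without overlap, and only RPL34 had an edgeR adjusted p under 0.05 (0.0332).

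The large and small subunits were described separately. Among 46 canonical large subunit genes the median log2 fold change was 0.14, with 31 of them positive and a range from -0.53 to 0.67. Among 31 canonical small subunit genes the median was -0.01, with 15 of them positive and a range from -0.63 to 0.52. The summed TPM of large subunit members over that of small subunit members was 1.62, 1.59 and 1.61 in knockdown libraries 1, 2 and 3 and 1.46, 1.42 and 1.49 in control libraries 1, 2 and 3. These ratios did not overlap between the groups. Without RPL41 they were 1.502, 1.469 and 1.488 in knockdown and 1.38, 1.36 and 1.41 in control libraries, again without overlap. No p was computed for these sums. A ratio of summed TPM weights each gene by its level and is no count of ribosomal subunits.

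The P stalk of the large subunit recruits the elongation factors, and none of its genes passed the test. RPLP0, its base, was at 2353, 2339 and 2365 CPM in knockdown and 1959, 2411 and 2782 CPM in control libraries, a log2 fold change of -0.02 (95% interval -0.40 to 0.36). RPLP1 was at 2549, 2397 and 2578 CPM in knockdown and 1790, 2365 and 2468 CPM in control libraries, a log2 fold change of 0.18 (-0.20 to 0.57). RPLP2 was at 620, 624 and 635 CPM in knockdown and 576, 688 and 774 CPM in control libraries, a log2 fold change of -0.12 (-0.46 to 0.23). In all 3 genes control library 1 was the lowest of the controls and control library 3 the highest. RPLP0 is often used as a reference gene for quantitative PCR.

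The other most abundant members did not pass the test. Per length, RPL41 was followed by RPL4, which also lines that tunnel, with means of 5893 ± 144 TPM in knockdown and 6002 ± 2170 TPM in control libraries (SD, n = 3 each). RPS27, a zinc finger protein of the small subunit, averaged 6569 ± 123 TPM in knockdown and 5060 ± 2015 TPM in control libraries. RPS18, at the head of the small subunit, averaged 5818 ± 119 TPM in knockdown and 4669 ± 2015 TPM in control libraries. Their log2 fold changes in counts were -0.20 for RPL4, 0.27 for RPS27 and 0.17 for RPS18, with edgeR adjusted p of 0.489, 0.370 and 0.654 in that order. In the knockdown libraries RPS27 lay above RPL4 and RPS18 by more than the SD, while in the control libraries the gaps between the 3 genes were within the SD.

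At the low end, the canonical members spanned a 12.6-fold range of mean TPM from RPS26 to RPL41. RPL22, at 711 TPM on average, stood beside RPS26 in level. RPL21 followed at 979 TPM and RPS28 at 1186 TPM. RPS28 was at 281, 261 and 281 CPM in knockdown and 272, 398 and 346 CPM in control libraries, a log2 fold change of -0.30 (edgeR adjusted p = 0.298). RPS13, which had the widest standard error of the canonical members, was at 338, 348 and 344 CPM in knockdown and 447, 325 and 657 CPM in control libraries. Its control libraries lay on both sides of the knockdown libraries, and its log2 fold change was -0.47 (SE 0.244, edgeR adjusted p = 0.274). RPL31 was at 730, 739 and 722 CPM in knockdown and 537, 531 and 699 CPM in control libraries, with a log2 fold change of 0.31 (edgeR adjusted p = 0.251).

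Several ribosomal proteins have known roles outside the ribosome, and 4 such genes were chosen after their values were seen. RPL5 and RPL11 bind MDM2 together with 5S rRNA and so link ribosome assembly to p53. RPL5 was at 1290, 1269 and 1291 CPM in knockdown and 1376, 1441 and 2044 CPM in control libraries, below every control, with a log2 fold change of -0.34 (edgeR adjusted p = 0.293). RPL11 was at 1107, 1058 and 1065 CPM in knockdown and 893, 1086 and 1239 CPM in control libraries, inside the control range, with a log2 fold change of 0.01 (edgeR adjusted p = 0.988). RPS6, the phosphorylation target of S6 kinase, was at 2200, 2113 and 2177 CPM in knockdown and 2492, 2138 and 3751 CPM in control libraries, with a log2 fold change of -0.37 (edgeR adjusted p = 0.343). RPS27A, which is made as a fusion with ubiquitin, was at 831, 824 and 818 CPM in knockdown and 688, 920 and 876 CPM in control libraries, with a log2 fold change of -0.01 (edgeR adjusted p = 0.986).

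The L-type paralogues are near copies of a ribosomal protein gene, some of them restricted to testis in normal tissue, and none of the 5 tested passed in edgeR, either adjusted or at an unadjusted p under 0.05, while limma-voom called 1, RPS27L. Their levels lay far below those of their parent genes except for RPL22L1, which is known to take the place of RPL22 in mice that lack it. RPL22L1 was at 226, 237 and 233 TPM in knockdown and 133, 109 and 264 TPM in control libraries. RPL22 was at 702, 731 and 696 TPM in knockdown and 428, 799 and 908 TPM in control libraries. RPL22L1 was thus at 32.2%, 32.5% and 33.5% of its parent in the knockdown libraries and 31.0%, 13.7% and 29.03% in the control libraries. On this scale the knockdown ratios lay above all control ratios, and control library 2 was far below the rest. The log2 ratio differed by 0.50 (exact permutation test, 2-sided, p = 0.1, the smallest that 3 against 3 libraries allow, and 0.5 after Benjamini-Hochberg adjustment over 5 pairs), and by 0.13 without control library 2. Taken from the counts, the difference was 0.43 and the groups overlapped (exact permutation p = 0.2).

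The other paralogues were rare beside their parents in every library. RPS27L, a target of p53, was at 2.31%, 2.08% and 2.09% of RPS27 TPM in knockdown and 2.10%, 3.31% and 2.07% in control libraries (difference of the log2 ratio -0.17, exact permutation p = 0.8). RPL26L1 was at 1.58%, 1.49% and 1.56% of RPL26 in knockdown and 1.59%, 2.06% and 1.29% in control libraries (difference -0.07, exact permutation p = 0.7). RPL7L1 was at 1.77%, 1.73% and 1.71% of RPL7 in knockdown and 2.05%, 1.90% and 1.44% in control libraries (difference -0.03, exact permutation p = 1.0). In all 3 pairs the knockdown ratios lay within the range of the control ratios, and the p adjusted over the 5 pairs by Benjamini-Hochberg (exact permutation tests) was 1.0. In counts, RPL7L1 was at 135, 143 and 138 CPM in knockdown and 154, 181 and 160 CPM in control libraries, below every control, with a log2 fold change of -0.25 (edgeR adjusted p = 0.259).

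RPL10L and RPL39L, known from testis, were barely present. RPL10L held 35, 37 and 82 counts in knockdown libraries and 19, 6 and 28 in control libraries, under 0.1% of the TPM of RPL10 in every library, and its log2 fold change of 0.21 had an interval from -1.62 to 2.05. RPL39L held 5, 5 and 2 counts in knockdown libraries and 5, 0 and 0 in control libraries, at or near the floor of 3 counts, so no fold was computed. A paralogue at these levels can also hold reads of its parent assigned by estimate.

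**Figure D4:**
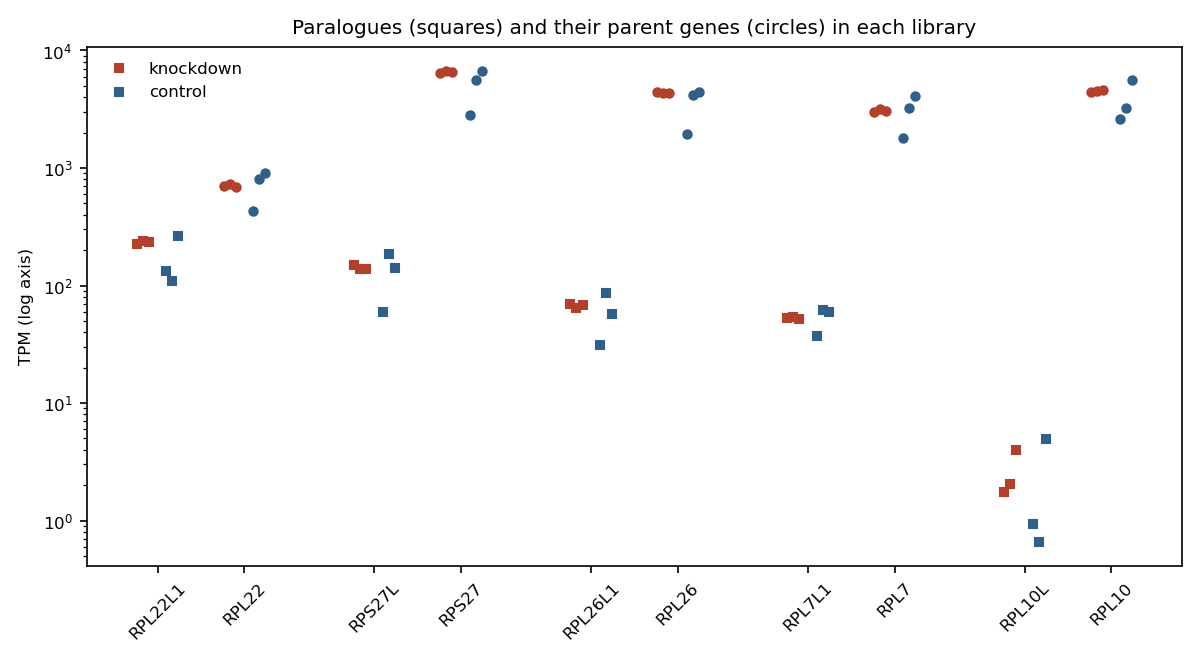
TPM on a log axis of 5 paralogues (squares) and their parent genes (circles) in each library, knockdown in red left of control in blue, libraries 1 to 3 from left to right. RPL22L1 lies nearest to its parent, at 32.2% to 33.5% of RPL22 in knockdown and 13.7% to 31.0% in control libraries, and the other pairs stand far apart.

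Genes with and without a TOP-type start were set side by side. The 47 members with such a start had a median log2 fold change of 0.08, and the 20 members with an entry but no such start had a median of 0.06. Of the 6 members with the smallest p, the starts of RPL34, RPL41, RPSA and RPS21 shown above met the rule, and RPSA and RPS21 had lower values in knockdown while RPL34 and RPL41 had higher ones. The list of other TOP mRNA genes, 23 tested, had a median of -0.11 and no gene called in edgeR. At an unadjusted p under 0.05 there were 5 genes, against 26.0% of all genes. In that list EEF2, the translocation factor of elongation, had the smallest p, at 2109, 2046 and 2081 CPM in knockdown and 2739, 2561 and 3219 CPM in control libraries (log2 fold change -0.45, edgeR adjusted p = 0.0987).

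Ribosomal protein genes have many processed pseudogenes, and reads that match both are split by estimate. The count table listed 196 such pseudogenes, which held 2.33%, 2.15% and 2.24% of the summed counts of members and pseudogenes in knockdown libraries and 1.89%, 1.97% and 1.82% in control libraries. The knockdown shares lay above all control shares. Of 153 tested, 2 were called in edgeR (1.31%, against 8.31% of all genes), both higher, RPL18P13 (log2 fold change 1.74, adjusted p = 0.0236) and RPS19P3, which held 78 counts in all. Their median log2 fold change was 0.73, against 0.08 for the members and 0.03 for all genes. That median weighs sparse and abundant pseudogenes alike. The abundant ones had mixed signs, such as 0.52 for RPL23AP42, 0.59 for RPL36AP37, -0.24 for RPS2P5 and -0.10 for RPL21P16. The part of low counts and of the count filter in the median was not tested. A single pseudogene, RPL23AP42, held 33.0% of the pseudogene counts.

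For a few members the share of counts on pseudogenes was large enough to make the level uncertain. Pseudogenes of RPL23A held 48.5% to 52.9% of the summed counts of gene and pseudogenes in knockdown and 47.0% to 48.9% in control libraries. RPL23A itself was at 759, 770 and 753 CPM in knockdown and 480, 637 and 693 CPM in control libraries, and RPL23AP42 was at 784, 676 and 799 CPM and 428, 532 and 617 CPM in the same order. Neither was called in edgeR, while limma-voom with quality weights called RPL23A. Pseudogenes of RPL21 held 36.1% to 42.8% in knockdown and 34.4% to 41.8% in control libraries. Those of RPL22 held 24.1% to 26.0% and 23.1% to 24.97% in the same order. The pseudogene of RPS28 held 17.3% to 20.5% in knockdown and 19.0% to 21.5% in control libraries. Smaller shares were on pseudogenes of RPL36A (13.6% to 14.3% in knockdown, 7.96% to 13.0% in control) and RPS2 (11.9% to 12.2% and 10.5% to 12.7%). For RPL41 and RPS27 the share was under 0.1% in every library, and no pseudogene of RPS21 was listed. Beyond pseudogenes, 37 members overlap a gene of the opposite strand and 15 a gene of their own strand, and 28 members host 60 small nucleolar RNAs in their introns.

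Of the ribosome proteins outside the naming pattern that were followed, RACK1, FAU and RPL36AL, none was called in edgeR, and RACK1 alone had an unadjusted p under 0.05. RACK1, a scaffold on the head of the small subunit, was at 2931, 2780 and 2903 CPM in knockdown and 1717, 2358 and 2355 CPM in control libraries. All knockdown values were above all control values, with a log2 fold change of 0.42 (edgeR adjusted p = 0.162). RPL36AL and FAU had log2 fold changes of 0.19 and -0.13, with edgeR adjusted p of 0.513 and 0.700 in that order.

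Genes that build ribosomes had medians below that of the ribosomal proteins themselves, and no test compared the lists. The 50 genes of the small subunit processome and 40S maturation had a median log2 fold change of -0.26, with 4 called lower (8.0%, against 3.72% of all genes) and none higher. UTP4, a component of the early processome, fell to 43.5, 39.65 and 39.96 CPM in knockdown, against 76.8, 73.3 and 96.5 CPM in control libraries (log2 fold change -1.001, edgeR adjusted p = 0.0130). TSR1, a factor of late 40S maturation, fell to 70.2, 70.3 and 70.4 CPM in knockdown, against 109, 110 and 105 CPM in control libraries (log2 fold change -0.62, edgeR adjusted p = 0.0220). The other two were UTP18 (-0.73) and NAT10 (-0.61), which acetylates 18S rRNA. In none of these 4 genes did the groups overlap, but the genes had been called from the same values. Over all genes, 15.7% were lower in knockdown without overlap.

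The 54 genes of 60S assembly had a median of -0.27, with 1 called higher, the helicase DDX51 (0.73), and 1 lower, the helicase DDX27 (-0.52). That was 3.70% of the list, against 8.31% of all genes. EFL1, the GTPase that releases EIF6 from the new large subunit, had a log2 fold change of -0.57 (edgeR adjusted p = 0.0509). The 22 genes of RNA polymerase I transcription had a median of -0.27, and 1 gene was called (4.55%, against 8.31% of all genes). This was TAF1C, a subunit of the promoter selectivity factor. TAF1C rose to 54.2, 48.2 and 48.2 CPM in knockdown, against 32.9, 34.6 and 34.7 CPM in control libraries (log2 fold change 0.56, edgeR adjusted p = 0.0401). The 17 chaperones and importins of ribosomal proteins had a median of -0.22 and none called in edgeR. At an unadjusted p under 0.05 there were 5, against 26.0% of all genes, among them IPO5 at -0.54 (edgeR adjusted p = 0.0567).

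The translation factors and the regulators of TOP mRNAs held 3 calls. The share called was 5.13% of the initiation factors and 4.55% of the regulators of TOP mRNAs and mTORC1. It was 4.35% of the genes of ribosome quality control, against 8.31% of all genes. At an unadjusted p under 0.05 in edgeR were 26.0% of all genes. The 39 initiation factors had a median of -0.27 with 2 called lower, EIF3I, a subunit of the scaffold factor eIF3, at -0.60, and EIF5A, the hypusine-bearing factor, at -0.60. The 18 elongation and termination factors had a median of -0.21 and none called in edgeR, with 4 at an unadjusted p under 0.05. The 22 regulators of TOP mRNAs and mTORC1 had a median of -0.02 with 1 called higher. That was TIA1, which binds TOP mRNAs under stress, at 80.3, 83.5 and 80.2 CPM in knockdown and 53.0, 41.9 and 46.7 CPM in control libraries (log2 fold change 0.78, edgeR adjusted p = 0.0185). PDCD4, an inhibitor of initiation and a target of S6 kinase, had a log2 fold change of 0.65 (edgeR adjusted p = 0.0508). The 23 genes of ribosome quality control had a median of -0.10 with 1 called higher, GIGYF1 (0.67), a repressor of translation.

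The mitochondrial ribosome, which translates the few mRNAs of the mitochondrial genome, gave a comparison set of the same size. Of its 83 protein genes, 8 were called lower and none higher in edgeR (9.64%, against 8.31% of all genes in either direction and 3.72% lower), with a median log2 fold change of -0.41. Of the 82 cytosolic members, none was called lower and the median was 0.08. The 8 genes were MRPL52, MRPL13, MRPL3, MRPS35, MRPL49, MRPS22, MRPL15 and MRPL48. In each the groups did not overlap, but the genes had been called from the same values. Over all genes, 15.7% were lower in knockdown without overlap. MRPL13 fell to 28.2, 33.0 and 29.2 CPM in knockdown, against 47.1, 69.7 and 49.1 CPM in control libraries (log2 fold change -0.88, edgeR adjusted p = 0.0319). The difference between both ribosomes was not tested. The 19 calls over these lists of ribosome and translation genes became 0 in edgeR without any 1 of the knockdown libraries and 132 without control library 2, where calls over all genes were 62 to 115 and 5604 in that order.

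**Figure D5:**
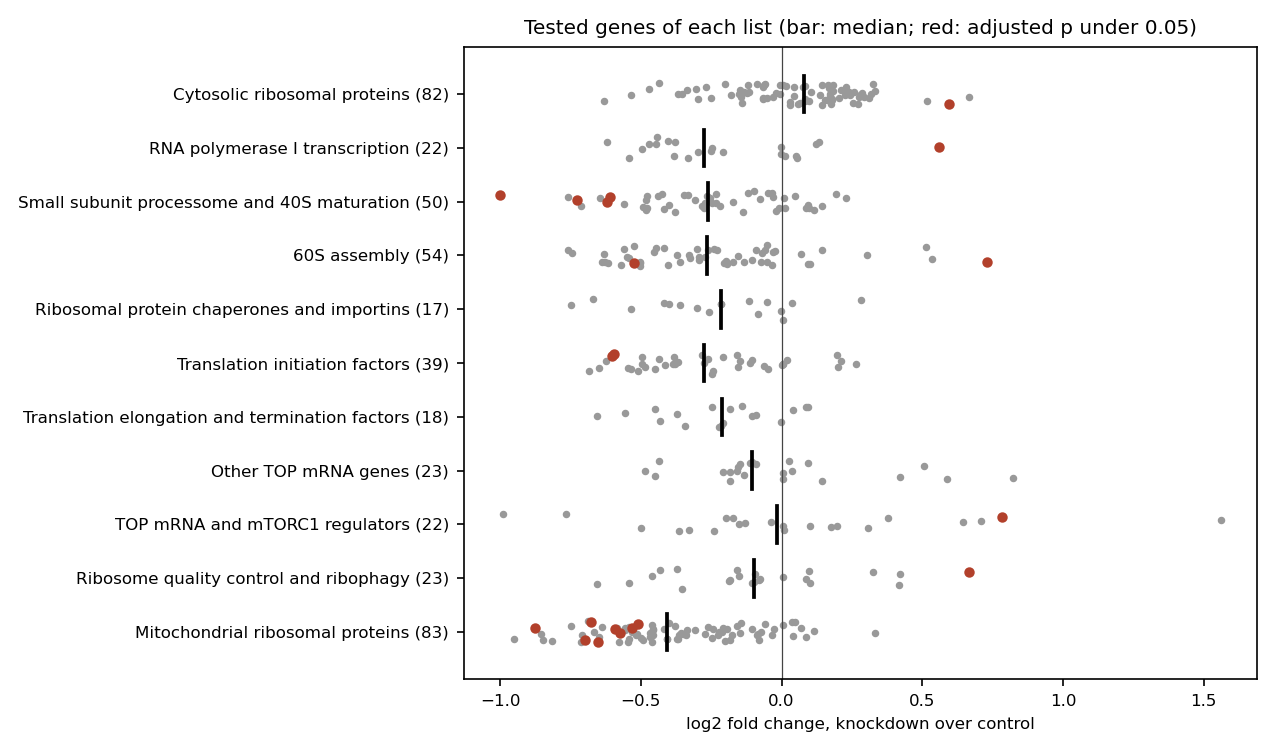
Log2 fold change (knockdown over control, x axis) of each tested gene in 11 lists, with the number tested in brackets, a bar at the median, and red points for an edgeR adjusted p under 0.05. The cytosolic ribosomal proteins centre on 0.08, the lists of ribosome assembly, RNA polymerase I and initiation on -0.26 to -0.27, and the mitochondrial ribosomal proteins on -0.41.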

How the data were processed

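Total RNA of 3 knockdown and 3 control samples was sequenced in bulk. The submitters' processing notes name the build GRCh38 and the tools fastp, Salmon and DESeq2; versions, strand setting and any separation of mouse reads were not given in the sources used here. The authors deposited estimated counts per gene, whole and not normalised, for 21503 genes, and TPM values, scaled for length and library total, for 60233. The table columns call the knockdown samples KO. Depth ran from 11737837 to 40039584 counts, so a single count weighs most in control library 3.

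The test was edgeR 4.0.16 (R 4.3.3), quasi-likelihood, 2-sided, with filterByExpr (2073 genes removed, 19430 tested), TMM and Benjamini-Hochberg adjustment at 0.05, no covariate. CPM used TMM library sizes; SDs of log2 CPM added 1 CPM. Intervals came from the log2 fold change, its SE and edgeR's total degrees of freedom. These degrees of freedom are the residual ones plus those gained by sharing information across genes. The SE was the absolute log2 fold change over the square root of the F statistic. Paralogue ratios were tested by exact permutation (scipy 1.17.1). GENCODE release 29 gave coordinates, found for 20986 genes, and overlaps; RefSeq gave start sequences. Members, lists and alternatives were chosen with earlier results of these data known. Named members were the paralogues, P stalk genes, RPSA, any that passed, the 4 with the smallest p in each subunit, the 3 largest changes in each direction and the 4 highest and 4 lowest by TPM; of each other list, up to 3 with the smallest p. Any further gene was picked with its values known. The test was run on simulated data with the same dispersion in both groups. That simulation could not check the test under the unequal spread of the groups seen here. Each library was taken as 1 replicate, since it has a sample title and number of its own. Library pairs differed beyond sampling noise (chi-square per degree of freedom 6.09 to 7.83 for knockdown, 130 to 519 for control pairs), as repeat preparations of 1 RNA also would.

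Alternatives were DESeq2 size factors, upper-quartile scaling, TMM without the members, the DESeq2 1.42.0 Wald test, limma-voom (limma 3.58.1) with quality weights, no filter, a floor of 5 CPM in 3 libraries, limma-trend with 1 or 0.1 added to TPM before log2 (mean TPM of 1 or more), the replicate number as a block, and each library left out. Leaving out mitochondrial transcripts and scaling to the members alone were added after seeing the data. Some genes are not reported by name here.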

Additional observations from a re-analysis of the deposited data

How the results depend on the processing

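Over 18 alternatives, 343 of 395 refits of the 22 named members kept direction and side of the threshold; RPL10L could not be tested at 5 CPM. The RPL34 call was lost in 8 alternatives (log2 fold change 0.50 to 0.82): without control library 1, without any 1 knockdown library, on both TPM scales, with the replicate block and scaled to the members. The median of the members stayed within -0.06 to 0.29. Calls over all genes (1614), members (1), the other ribosome and translation lists (19) and pseudogenes (2) became 3660, 6, 80 and 23 with DESeq2, 3716, 14, 88 and 9 with limma-voom (1 paralogue, RPS27L), 828, 0, 0 and 18 on log2(TPM + 1), 526, 0, 0 and 10 on log2(TPM + 0.1), and 733, 0, 2 and 0 when scaled to the members. At 5 CPM, members, lists and pseudogenes gave 2, 42 and 1. Leaving out 1 library gave 62 to 5604 genes, 0 to 8 members, 0 to 1 paralogues, 0 to 132 list genes and 0 to 25 pseudogenes. No shared effect of replicate number was seen (correlations of deviations -0.02 to 0.02 over all pairings), which does not show that the samples were unpaired. With the number as a block, calls were 566, 0, 1 and 0. GANAB on log2(TPM + 0.1) was -1.26 (limma adjusted p = 0.0553). On the TPM scales the median of all genes was 0.23 and 0.28, and uncalled members turned positive: RPLP0 0.22, RPL21 0.10, RPLP2 0.083, RPL22 0.066, RPL7L1 0.056 and 0.058, and RPL4 0.047, with 1 value where both scales gave the same. RPLP0 was also 0.0045 with upper-quartile scaling and 0.052 with limma-voom. Without 1 library, log2 fold changes ranged from -0.17 to 0.054 for RPLP0, -0.25 to 0.0094 for RPL21, -0.25 to 1.22 for RPL10L, -0.14 to 0.38 for RPL26L1 and -0.0016 to 0.50 for RPL22L1. The cause of these shifts was not tested. With 3 libraries a group, the interval excluded a 1.5-fold change for 47 of 82 members and not for the others.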

Other observations

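The ribosomal protein genes host small nucleolar RNAs, and some non-coding host genes share their TOP-type start. Among these, SNHG5, a host of small nucleolar RNAs, was at 191, 191 and 188 CPM in knockdown and 110, 58.2 and 154 CPM in control libraries, above every control (log2 fold change 0.82, SE 0.314, edgeR adjusted p = 0.149). The readthrough gene RPS10-NUDT3, which shares exons with RPS10, was at 31.6, 32.5 and 31.4 CPM in knockdown and 24.9, 26.7 and 20.8 CPM in control libraries (log2 fold change 0.40, edgeR adjusted p = 0.148). NUFIP1, known as a receptor for the autophagy of ribosomes, was at 13.1, 15.1 and 13.0 CPM in knockdown and 20.1, 21.0 and 23.8 CPM in control libraries, below every control (log2 fold change -0.65, edgeR adjusted p = 0.0547).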
